A study of Mus musculus with 9 samples.

Results

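AMAP against control at 24 h is the comparison of 1 array with 1 array. It was read in the 2645 genes for which at least 2 probe sets, each annotated to a single gene symbol, reached a log2 level of 5.66 on the brighter of the AMAP and control arrays. That level is the median of all deposited values. These 2645 genes were represented by 6554 probe sets and were taken from 12393 genes with a named probe set, of which 4956 had at least 2. A gene was called higher or lower where each of its probe sets that reached the level differed by at least 1.5-fold, 0.58 on the log2 scale, in the same direction. Dimmer probe sets of the same gene were not counted, and "every probe set" below means those that reached the level. By this rule 36 genes were higher after AMAP (1.36% of the 2645) and 49 were lower (1.85%).

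The cells were TAMH, a mouse hepatocyte line that grew out of animals carrying a transforming growth factor alpha transgene, labelled C57BL/6 and liver. AMAP is the meta isomer of acetaminophen (APAP), long used beside APAP as the less liver-toxic compound in mice. Both were given at 2 mM, or control medium was given, for 2, 6 or 24 h. Each treatment used 2 dishes of cells, and each of the 9 combinations of treatment and time was hybridised to a single Affymetrix mouse 430A_2 array. The groups used here are control medium and 2 mM AMAP at 24 h, with the control, AMAP and APAP arrays of the other times beside them. No group has a replicate array, so no difference was tested. A second probe set of a gene shares the RNA and the array. Its scatter is given, but it is not an error between cultures or arrays, which cannot be given.

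Several of the highest genes are known targets of p53 or immediate-early genes. The tumour suppressor p53 is a transcription factor that is held low by its target Mdm2, a ubiquitin ligase, and released when DNA or nucleolar stress is sensed. It then switches on inhibitors of the cell cycle such as Cdkn1a and Btg2, repair enzymes and nucleases. Jun and other immediate-early factors are switched on within minutes by stress kinases, and in hepatocytes they are among the first genes to answer injury.

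The 5 genes at least 2-fold higher in every probe set were Lif, Jun, Btg2, Mdm2 and Polk. In order of the weaker probe set they were followed by Cdkn1a, Txnip, Hoxc6, Cavin1, Brat1, Aen and Pim3. RefSeq promoter windows of GRCm38.p6, 250 bases before to 50 after the transcript start, are shown for 6 of these genes, known p53 targets and Jun, to let the p53 and stress-kinase motifs be seen beside the values. Capitals mark the consensus p53 decamer in Cdkn1a, Mdm2, Aen and Polk, and TGACNTCA, the motif of the Jun and ATF families, in Btg2 and Jun. The windows are Cdkn1a at chr17:29090729-29091028, plus strand; Mdm2 at chr10:117710709-117711008, minus strand; Aen at chr7:78895677-78895976, plus strand; Polk at chr13:96519138-96519437, minus strand; Btg2 at chr1:134079106-134079405, minus strand; and Jun at chr4:95052173-95052472, minus strand.
Cdkn1a: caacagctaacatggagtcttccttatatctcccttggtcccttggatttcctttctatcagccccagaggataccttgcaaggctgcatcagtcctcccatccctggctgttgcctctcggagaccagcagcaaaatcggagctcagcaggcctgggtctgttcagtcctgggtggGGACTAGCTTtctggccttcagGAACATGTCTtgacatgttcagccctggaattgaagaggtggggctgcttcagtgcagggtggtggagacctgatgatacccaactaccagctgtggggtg
Mdm2: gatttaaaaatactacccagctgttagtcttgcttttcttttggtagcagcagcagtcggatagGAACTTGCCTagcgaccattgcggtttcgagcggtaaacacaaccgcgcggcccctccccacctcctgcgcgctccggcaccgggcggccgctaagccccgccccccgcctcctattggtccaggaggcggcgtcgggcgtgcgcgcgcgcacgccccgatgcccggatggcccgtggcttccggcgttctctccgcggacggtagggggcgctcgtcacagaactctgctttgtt
Aen: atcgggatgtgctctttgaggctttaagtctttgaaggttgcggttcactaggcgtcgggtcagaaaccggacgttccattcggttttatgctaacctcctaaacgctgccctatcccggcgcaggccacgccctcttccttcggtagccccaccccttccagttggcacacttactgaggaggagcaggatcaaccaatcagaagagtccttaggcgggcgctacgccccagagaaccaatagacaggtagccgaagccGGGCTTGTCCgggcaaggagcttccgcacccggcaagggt
Polk: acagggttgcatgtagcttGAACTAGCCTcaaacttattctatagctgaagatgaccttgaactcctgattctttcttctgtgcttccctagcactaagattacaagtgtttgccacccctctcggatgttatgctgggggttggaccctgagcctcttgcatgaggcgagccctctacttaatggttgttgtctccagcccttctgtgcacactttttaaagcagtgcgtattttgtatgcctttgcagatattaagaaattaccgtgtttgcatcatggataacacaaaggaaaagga
Btg2: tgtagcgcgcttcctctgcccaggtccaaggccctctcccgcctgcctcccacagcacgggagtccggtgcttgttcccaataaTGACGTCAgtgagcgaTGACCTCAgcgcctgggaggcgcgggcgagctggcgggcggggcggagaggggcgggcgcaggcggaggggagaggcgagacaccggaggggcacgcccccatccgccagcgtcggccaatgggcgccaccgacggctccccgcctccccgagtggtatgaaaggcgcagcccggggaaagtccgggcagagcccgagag
Jun: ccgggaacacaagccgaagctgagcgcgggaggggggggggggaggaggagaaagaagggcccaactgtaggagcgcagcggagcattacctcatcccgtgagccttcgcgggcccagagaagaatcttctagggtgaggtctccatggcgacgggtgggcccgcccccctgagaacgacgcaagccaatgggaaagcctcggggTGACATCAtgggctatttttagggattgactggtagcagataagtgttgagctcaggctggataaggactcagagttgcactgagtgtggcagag
The Cdkn1a window held decamers whose first bases lie at -73 and -51 from the start, and the Btg2 window held TGACNTCA at -166 and -150. Cdkn1a, Aen and Polk have 2 windows in the table, and the one with the most matches is shown. The decamer was found in 5 of the 32 higher genes with a window (15.6%), the fifth being Gys1. It was found in 2 of 43 lower genes (4.65%), in 7.23% of the 2171 genes of the comparison with a window and in 9.55% of 27025 genes of the promoter table. TGACNTCA was present in 9.38% of the higher genes, in Btg2, Jun and Runx1, and in 9.3% of the lower genes, against 8.84% of all 2171. Both strands were searched, and the motifs were chosen after the called genes were known. A match describes the letters in these windows and is not evidence of binding.

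Of the 39 listed p53 targets, 12 met the probe-set rule, and 5 of them were higher and none lower. The 5 were Btg2, Mdm2, Polk, Cdkn1a and Aen. All probe sets were up in 8 of the 12, against 784 of 2645 genes (29.6%), and the median difference of the 12 was 0.65 log2, against 0.01 over all 2645 genes. The list was chosen with earlier results of these data known, so its direction is not independent evidence.

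Mdm2, the ligase that limits p53, was at 9.32 log2 on the 24 h control array and 10.66 on the AMAP array in the first probe set. In the second probe set it was at 9.00 and 10.61. The differences were 1.35 and 1.61. On the control arrays of 2 and 6 h both probe sets lay between 8.97 and 9.32, so the AMAP value at 24 h lay above all 3 control arrays. At 2 h with AMAP they were at 10.60 and 10.58, and at 6 h at 9.18 and 8.91. Mdm2 was therefore high on the 2 h and 24 h AMAP arrays and near the controls on the 6 h array.

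Cdkn1a, the p21 inhibitor of cyclin-dependent kinases, followed the same order of arrays at another level. Its 2 probe sets were at 7.01 and 9.43 in the 24 h control and at 8.14 and 10.37 with AMAP, which are differences of 1.13 and 0.94. On the 2 h arrays the control values were 6.44 and 8.67 and the AMAP values 8.05 and 10.35. At 6 h the AMAP values of 6.11 and 8.58 were below the control values of 6.62 and 9.17. Its level with AMAP was thus about equal at 2 and 24 h, while the control level was higher at 24 h than at 2 h in both probe sets.

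Btg2, an antiproliferative partner of the CCR4-NOT deadenylase, showed the largest positive mean difference of the 2645 genes, 1.80. Its probe sets were at 8.96 and 7.26 in the control and at 10.34 and 9.46 with AMAP. Polk, the translesion DNA polymerase kappa, was at 5.92 and 7.13 in the control and at 7.14 and 8.35 with AMAP. The 2 Polk probe sets gave nearly the same difference, 1.22 and 1.21, although their levels were more than 1 log2 apart. Aen, a nuclease of apoptotic DNA, was at 8.21 and 6.71 in the control and at 9.18 and 7.53 with AMAP, differences of 0.97 and 0.81. On the control array of 6 h the Aen probe sets were at 8.82 and 7.60, so the second did not exceed all 3 controls.

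The other 7 p53 targets were not called. Sesn2, a stress-induced inhibitor of mTORC1, came nearest, with differences of 0.51 and 1.25. Ccng1, cyclin G1, had probe sets from -1.93 to 0.79 and a mean of -0.36. Ddb2, the damage sensor of nucleotide excision repair, lay between -0.30 and -0.18. The uncalled targets thus lay on both sides of 0.

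**Figure D1:**
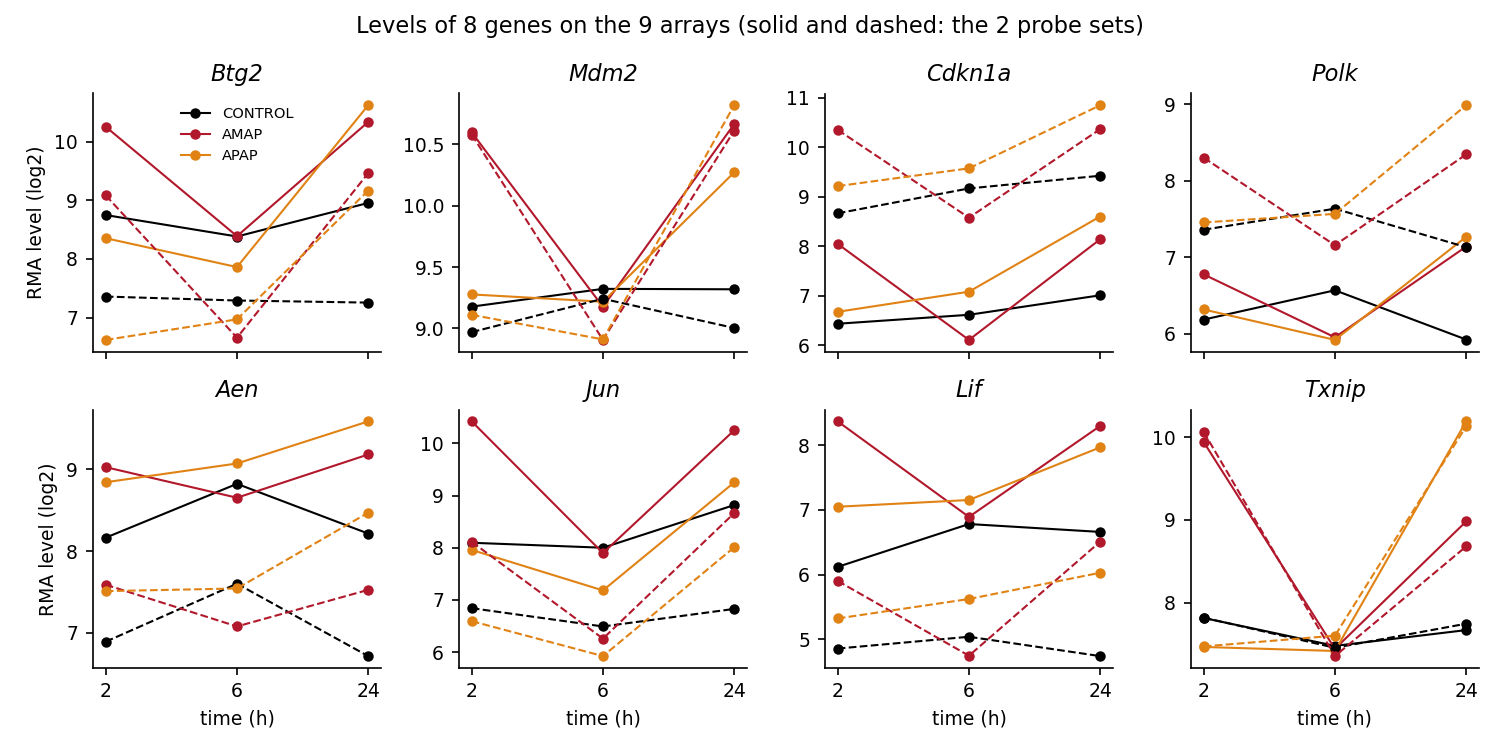
RMA log2 levels of Btg2, Mdm2, Cdkn1a, Polk, Aen, Jun, Lif and Txnip on the 9 arrays at 2, 6 and 24 h for control medium, AMAP and APAP, with each line 1 probe set and each point 1 array; vertical scales differ between panels. All 8 were picked from the 10 genes called higher at both 2 and 24 h, so high AMAP values at these times follow from the choice. The AMAP values are lower at 6 h, as in Mdm2 at 10.60, 9.18 and 10.66. Hoxc6, Cavin1 and Brat1, also among the 12 highest at 24 h, are not shown. Their mean differences at 2 h were -0.04, 0.18 and -0.18.

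Of the 29 listed immediate-early transcription factors, 10 met the rule. Jun and Btg2, which is in both lists, were higher, none was lower, and the median of the 10 was 0.24. Jun, a subunit of AP-1, was at 8.82 and 6.83 in the 24 h control and at 10.25 and 8.66 with AMAP, so it differed by 1.43 and 1.84. Fosl1, a Jun partner, had differences of 0.41 and 1.47, and Ier5, a regulator of heat-shock transcription, of 0.05 and 1.10. Both were uncalled because 1 of their probe sets moved little. Zfp36l1, an mRNA decay factor, was lowest of the 10 with probe sets at -0.72 and -0.12. The median of this list depended on the control array: it was 0.94 against the control of 2 h and 0.50 against that of 6 h.

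Lif, a cytokine of the interleukin-6 family, had the largest difference in its weaker probe set among the 36 higher genes. It was at 6.66 and 4.74 in the control and at 8.29 and 6.51 with AMAP, differences of 1.64 and 1.77. Lif was the only called gene among 7 members of the NF-kB and inflammation list that met the rule. The next, Nfkb2, which encodes an NF-kB subunit, had probe sets at 0.20 and 0.60. Map3k14, the NIK kinase that acts on Nfkb2 protein, was outside the lists and was higher by 0.59 and 1.05.

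Txnip, an arrestin that curbs glucose uptake and binds thioredoxin, was at 7.67 and 7.74 in the control and at 8.98 and 8.68 with AMAP. Its differences of 1.31 and 0.93 were smaller than those at 2 h, 2.13 and 2.25. Pfkp, the platelet form of phosphofructokinase, was higher by 0.70 and 0.97. These were the 2 called genes of 13 in the glycolysis and hypoxia list, and 6 of the 13 had all probe sets up against none with all down. Over all 2645 genes 1.36% were called higher, and all probe sets were up in 29.6% and down in 20%. The median of the 13 was 0.07. Hk1, hexokinase 1, was at 0.25 to 0.62. Outside the lists, Gys1, muscle-type glycogen synthase, was higher by 0.62 and 0.70, and Pmm1, a phosphomannomutase, by 0.64 and 0.77.

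The remaining genes of the 12 highest differed by less than 2-fold in each probe set. Hoxc6, a homeobox factor, was higher by 0.92 and 0.93, Cavin1, a coat protein of caveolae, by 0.89 and 0.92, and Brat1, an activator of ATM, by 0.84 and 0.94. Pim3, a serine/threonine kinase, was higher by 0.80 and 0.82. Hoxc6 and Brat1 were dim, at 5.61 and 5.57 and at 4.92 and 4.92 in the control. Of the other 24 higher genes, Gadd45b, a stress sensor upstream of p38 and JNK, was higher by 0.75 to 0.80 and Col5a1, a fibrillar collagen chain, by 0.80 to 1.03. Txnrd2, mitochondrial thioredoxin reductase, differed by 0.77 to 1.04. E2f1, the S-phase transcription factor, and Pkmyt1, a kinase that holds Cdk1 inactive, were higher by 0.61 to 0.62 and 0.64 to 0.77. The weakest call was Inhbb, an activin subunit, at 0.586 to 0.944, and the gene just outside was Ascc2, a helicase partner in alkylation repair, at 0.584 to 0.713.

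The 49 lower genes had larger and more scattered differences than the 36 higher genes. Their median difference was -1.05, against 0.79 in the higher genes, and the median range between probe sets of a gene was 0.42 against 0.13. Ppp1cb, a catalytic subunit of protein phosphatase 1, was at 8.58 and 8.49 in the control and at 6.63 and 5.13 with AMAP. Rnpc3, a protein of the minor spliceosome, was at 5.91 and 5.84 in the control and at 3.20 and 3.93 with AMAP. Ciao2a, of cytosolic iron-sulfur assembly, was at 8.97 and 9.72 in the control and at 5.94 and 8.34 with AMAP. These 3 genes had the lowest means, -2.66, -2.31 and -2.20. Ppp1cb has 4 probe sets in all. Over the 4 the mean was -1.48 and the gene was not called, nor was it called where both arrays had to reach the level.

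The next genes in order differed less. Nectin3, an adhesion molecule of adherens junctions, was at 7.35 and 6.88 in the control and at 6.11 and 5.44 with AMAP. Alcam, an immunoglobulin adhesion molecule, was lower by 1.08 and 0.98, and the mucin-like Tmem123 by 1.92 and 0.97. Arhgap21 was lower by 1.53 and 1.16. Gja1, the gap junction protein connexin 43, was lower by 2.44 and 0.81, and Igf2r, the mannose 6-phosphate receptor, by 1.61 and 0.79. In Nectin3 and Arhgap21 each probe set that reached the level was at least 2-fold lower, and in Alcam, Tmem123, Gja1 and Igf2r 1 probe set was not. Nectin3 has 5 probe sets in all, over which the mean was -0.49 and the gene was not called.

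Sfpq and Malat1 were the called genes with the most probe sets that reached the level. Sfpq, a paraspeckle and splicing protein, was lower in all 4 probe sets that reached the level, of 5 in all, with differences of -3.53, -1.44, -1.08 and -0.94. Nono, its partner, was lower by at least 0.62 in each of 3 probe sets, and Malat1, a nuclear long noncoding RNA, by 0.71 to 1.45 in 5. Malat1 was at 9.62, 10.08, 7.37, 10.59 and 7.58 in the control and at 8.17, 9.19, 6.65, 9.35 and 6.87 with AMAP. All 5 were lower. Cnbp, a nucleic acid-binding zinc finger protein, was lower by 2.05 and 0.93, and Ddx6, an RNA helicase of P-bodies, by 0.88 to 1.27 in 3 probe sets.

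The list of splicing factors and hnRNP proteins had the lowest median of the lists with at least 3 genes, -0.37. Against the control of 6 h its median was -0.17, and those of mitosis (-0.35), ribosome biogenesis (-0.21) and heat shock genes (-0.21) were lower. Of its 41 members, 1 was called lower, Rnpc3, and none higher, but all probe sets were down in 20 and up in 3. Over all 2645 genes they were all down in 530 (20%). Hnrnpr had probe sets from -1.84 to -0.33, Hnrnpa2b1 from -1.69 to -0.05 and Qk, the RNA-binding protein quaking, from -1.71 to -0.39. In each of the 3 at least 1 probe set differed by less than 1.5-fold. The same list had a median of 0.32 at 6 h with AMAP, -0.03 at 2 h with AMAP and -0.40 at 6 h with APAP.

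Vldlr, a lipoprotein receptor counted in the list of ATF4 stress genes, was at 6.71 and 8.25 in the 24 h control and at 5.32 and 7.19 with AMAP. The control arrays of 2 and 6 h were at 5.94 and 5.56 and at 6.95 and 6.69, so the 24 h control was the array that stood apart, and against the control of 2 h the mean difference of Vldlr was -0.19. Vldlr was the only called gene of the 19 ATF4 members, whose median was 0.01. Psat1, of serine synthesis, was uncalled with -1.26 and -0.55, and Sesn2, in this list too, was at 0.51 and 1.25. Against the control of 2 h the median of the ATF4 list was 0.69, and against that of 6 h it was 0.51.

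Dimmer probe sets bear on several of these 24 genes. With no level filter, Hoxc6, Cavin1, Brat1, Pim3, Ppp1cb, Nectin3, Vldlr, Resf1 and Sfpq were not called, and their means were 0.39, 0.72, 0.60, 0.65, -1.48, -0.49, -0.54, -0.74 and -1.50 over 3, 3, 4, 3, 4, 5, 4, 3 and 5 probe sets. The other 15 genes kept the call. With both arrays required to reach the level, 2375 genes met the rule. Of the 36 higher and 49 lower genes, 24 and 37 were then called. Of the 12 highest and 12 lowest, Lif, Hoxc6, Cavin1, Brat1, Ppp1cb, Rnpc3, Nectin3, Vldlr and Tmem123 were not.

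**Figure D2:**
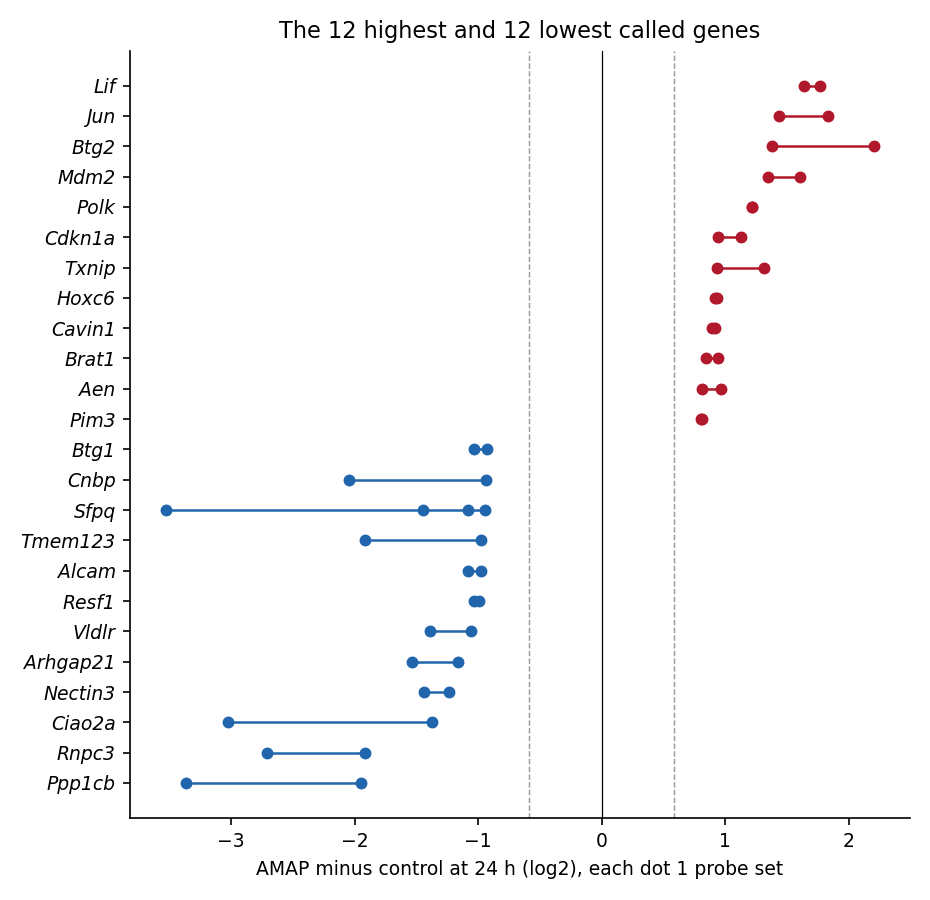
Log2 difference of AMAP minus control at 24 h for each probe set (dot) that reached the level of 5.66 in the 12 highest and 12 lowest called genes, ordered by the probe set with the smallest difference; dashed lines mark 1.5-fold. The higher genes have narrow ranges, as in Polk at 1.21 and 1.22, and several lower genes wide ones, as in Sfpq from -3.53 to -0.94.

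Antioxidant, chaperone and cholesterol lists are set beside the shares over all 2645 genes, 1.36% called higher and 1.85% lower. At those shares few or no calls are the base in lists of 11 or 12 genes. Of 11 NRF2 targets that met the rule, Cat, the peroxide-degrading catalase, was lower by 2.45 and 0.86 and none was higher, with a median of 0.01. Txnrd1, cytosolic thioredoxin reductase, ranged from -0.00 to 0.66, and Gclc, of glutathione synthesis, from -0.64 to -0.45. None of 12 endoplasmic reticulum chaperone genes was called, and Hspa5, the chaperone BiP, had probe sets from -1.34 to -0.32. None of 11 heat shock genes was called, and Hspb8 was highest at 0.29 to 0.70. In cholesterol synthesis Hsd17b7, a sterol reductase, was higher by 0.59 and 0.65. The median of its 11 members was -0.29, and -0.0079 against the control of 6 h. Hmgcs1 ranged from -1.48 to 0.29.

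Genes of proliferation gave both directions. Of 19 DNA replication genes, E2f1 was higher, and Mcm6, a subunit of the replicative helicase, and Rfc4, of the clamp loader, were lower. Mcm6 had probe sets at -3.16 and -0.84, and Rfc4 at -1.03 and -0.79, while Mcm3 and Rrm2 had means of 0.19 and 0.37. None of 15 mitosis genes was called, and their median of -0.16 compares with -0.45 at 2 h. Kif11, a spindle motor, was the lowest at -1.93 to -0.21.

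Among degradation and organelle lists, Mdm2 was the only called gene of 34 ubiquitin genes, and no gene was called of 14 proteasome, 21 respiratory chain, 16 ribosome biogenesis or 5 fatty acid oxidation genes. Their medians lay between -0.20 and 0.03, and against the control of 6 h that of fatty acid oxidation was 0.18. None was called of 11 apoptosis regulators, 13 matrix and TGF-beta genes, 6 clock genes, 5 interferon genes, 6 hepatocyte identity genes or 3 MAPK feedback genes. Over all 2645 genes 1.36% were called higher and 1.85% lower, so few or no calls are the base in lists of these sizes. These counts, and that of the mitosis genes, do not show that a list was unaffected. Bak1, a pore-forming killer, was highest of the apoptosis genes at 0.17 to 0.58. Errfi1, an inhibitor of the epidermal growth factor receptor, had the closest pair of the MAPK feedback genes, 0.50 and 0.53, just under the threshold. Ttr, the liver transport protein transthyretin, had probe sets from -1.20 to -0.05.

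**Figure D3:**
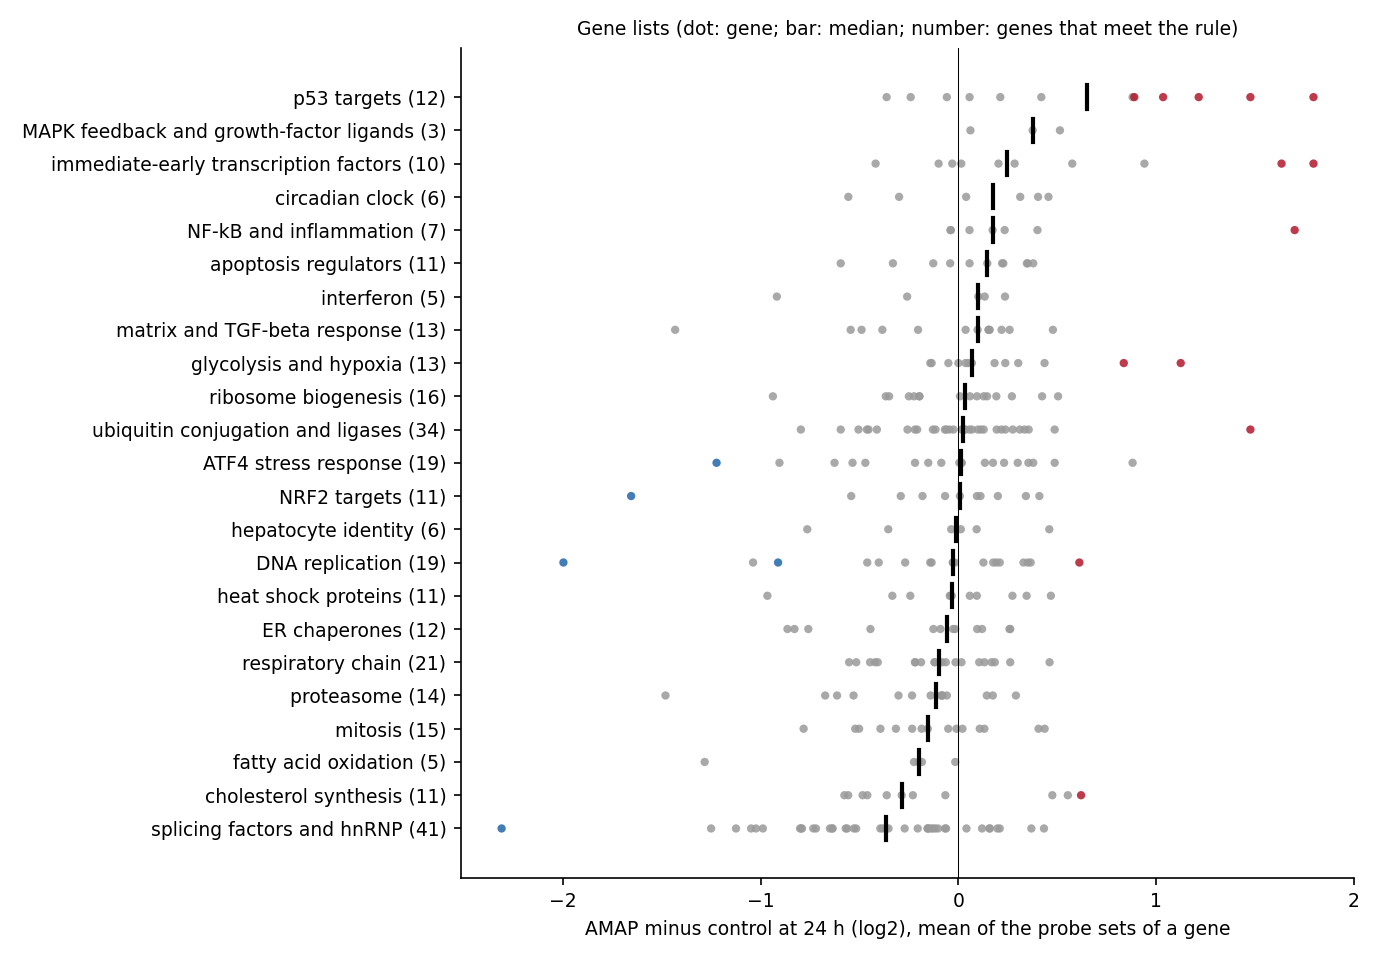
Mean log2 difference over the probe sets of each gene, AMAP minus control at 24 h, in the lists with at least 3 genes that met the rule; red and blue dots are called genes, grey dots the rest, and bars the medians. Among these lists the p53 targets have the highest median, 0.65, and the splicing factors and hnRNP proteins the lowest, -0.37.

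The hepatocyte label was checked with the brightest probe set of each marker. Of 12 listed hepatocyte markers, 10 had a probe set annotated to the listed symbol alone, and the others were not read. All 10 lay above 5.66 on both arrays, with albumin at 13.17 in the control and 12.92 with AMAP. Of 12 macrophage markers only Cd14 did, and Adgre1, Csf1r and Ptprc were at 4.88 or below on both arrays. Of 12 stellate cell and fibroblast markers Dcn and Vim did on both arrays, and Des with AMAP at 5.72. Of 12 endothelial markers Egfl7 did in the control alone. Of 10 listed cholangiocyte markers 7 had such a probe set, and 5 of the 7 did in the control and 4 with AMAP. The log2 of the summed level was 14.69 in the control and 14.56 with AMAP for hepatocyte markers, 10.33 and 10.24 for macrophage, 12.39 and 12.44 for stellate cell, 7.45 and 7.52 for endothelial, and 10.07 and 10.30 for cholangiocyte markers. The part of other cells, or of fewer cells or less RNA per cell, in the differences was not tested.

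The AMAP array of 24 h stood apart from 6 of the other arrays in a control that is added to the sample, and by less in transcripts of the cells. The middle probe set of the dap spike-in transcript minus its 3′ probe set was -1.94 log2, against -0.60 to -0.44 on those 6 arrays. The arrays of APAP at 6 and 24 h had -1.72 and -1.58. For Actb the same measure was -0.64 on the AMAP array and -0.63 to -0.47 on the 6 arrays, and for Gapdh it was 0.36 and 0.10 to 0.24. The 5′ minus the 3′ probe set was -0.13 and -0.47 to -0.27 for Actb, and 0.25 and 0.21 to 0.29 for Gapdh. The lower quartile of all values was 3.84 on the AMAP array and 3.50 to 3.63 on the 6 arrays. The part of this difference between arrays in the calls was not tested, and the AMAP array of 24 h cannot be left out.

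The probe sets of a gene disagreed often at 24 h. A probe set at least 2-fold apart was found in 395 genes, and in 47 of them (11.9%) every probe set was apart by at least 1.5-fold in that direction. In 194 (49.1%) another probe set had the opposite sign. In the same 2645 genes at 2 h, AMAP against its own control had 60 such genes, of which 41 (68.3%) agreed and 4 (6.67%) had opposite signs. At 6 h 195 genes were apart and 18 (9.23%) agreed. Agreement was thus the rule at 2 h and the exception at 6 and 24 h.

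The 5 genes with the widest ranges show the form of the disagreement. Psmb4, a proteasome subunit, had 1 probe set at 8.34 in the control and 4.99 with AMAP, and another at 11.52 and 11.91. Tmem109, a membrane channel protein, had differences of -3.41, -3.23 and 0.25, Gpt2, mitochondrial alanine aminotransferase, of -3.36, 0.29 and 0.02, and Fbxo22, a ubiquitin ligase subunit, of -3.20 and 0.31. Tbca, a tubulin-folding cofactor, had -3.41, -0.99 and 0.10. The low Psmb4 probe set was at 8.11, 8.05, 8.46 and 8.22 on the control array of 2 h, the AMAP arrays of 2 and 6 h and the APAP array of 2 h. It was at 5.72 on the control array of 6 h and at 4.30 and 3.75 on the APAP arrays of 6 and 24 h. The same arrays were low in Tmem109, Fbxo22 and the lowest Tbca probe set. They were also low in 1 probe set of the called genes Ppp1cb, Cnbp, Mcm6 and Tmem123, among others. By gene means, 46 of the 49 lower genes were lower on the 6 h than the 2 h control array. Of these 46, Ppp1cb, Cat, H2az1 and Arg2 met the rule for a lower call there. With APAP, 49 lay below the control of the same time at 6 h and 48 at 24 h. Over all 2645 genes these counts were 1187, 1667 and 1312. The part of these arrays in the calls was not tested.

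Probe sets differed by design as well. Of 738 probe sets with the suffix _x_at, whose probes can match other transcripts, 86 (11.7%) were at least 2-fold lower, against 158 of 3580 (4.41%) with the plain suffix _at. At least 2-fold higher were 1 (0.136%) and 27 (0.754%). Without probe sets of the suffixes _s_at and _x_at, 31 of the 49 lower and 29 of the 36 higher genes were called among 1988 genes. Ppp1cb, Rnpc3, Arhgap21, Vldlr, Resf1, Hoxc6, Brat1 and Pim3 then had fewer than 2 probe sets or lost the call.

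**Figure D4:**
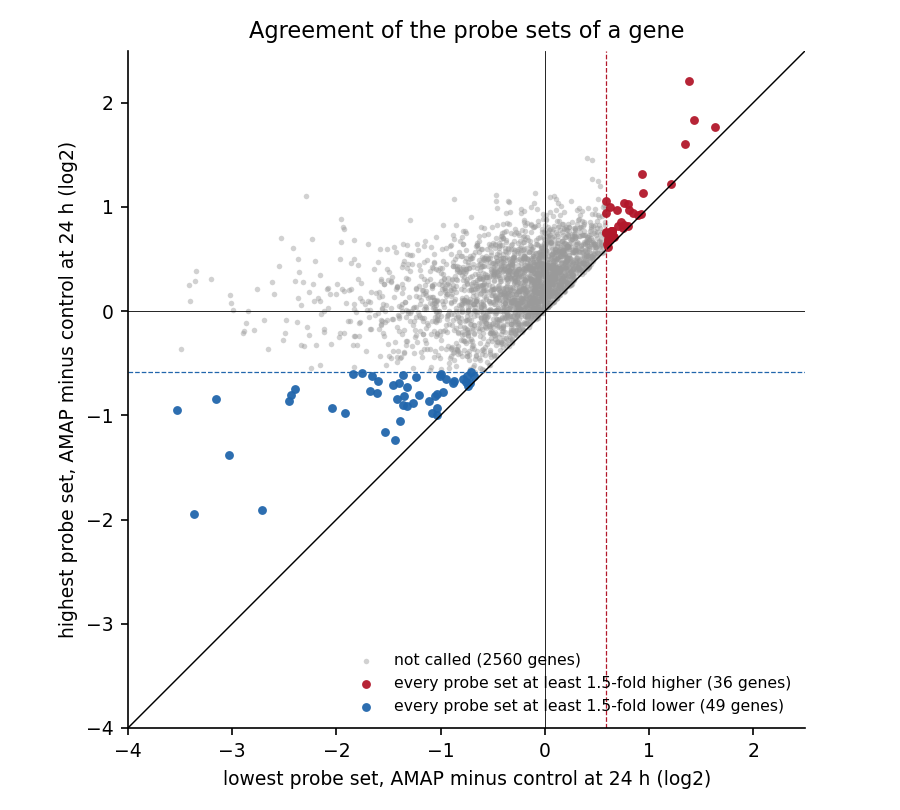
Lowest against highest log2 difference, AMAP minus control at 24 h, among the probe sets of each of the 2645 genes; points on the diagonal have equal probe sets, and dashed lines mark 1.5-fold. The 36 higher genes lie near the diagonal, and many uncalled genes extend far to the left with a highest probe set near 0.

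The difference fell with the level on the 24 h control array. In the 662 dimmest genes, at 4.92 to 6.90, the median difference was 0.21. Of these, 22 were called higher and 3 lower. In the 661 brightest genes, at 8.62 to 12.7, the median was -0.12, and 2 were higher and 14 lower. The 2 groups of 661 genes between had medians of 0.03 and -0.03. They held 5 and 7 higher and 17 and 15 lower genes. After cyclic loess normalization, which removes a trend of the difference with level, 18 genes were higher and 65 lower. Among these were 18 of the 36 and 46 of the 49, and all of the 12 highest and 12 lowest genes except Brat1.

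The called genes were set beside AMAP at 2 h and 6 h, comparisons that share no array with that of 24 h. At 2 h, 54 of the 2645 genes were higher (2.04%) and 24 lower (0.907%). Of the 36 genes higher at 24 h, 10 were also higher at 2 h, which is 27.8% of the 36 and 18.5% of the 54, and none was lower. They were Aen, Btg2, Cdkn1a, Gadd45b, Jun, Lif, Mdm2, Pim3, Polk and Txnip. The median difference of these 10 was 1.57 at 2 h, -0.33 at 6 h and 1.17 at 24 h, and all 10 had a mean below 0 at 6 h. So had 25 of the other 26 higher genes, with a median of -0.39 at 6 h, and 1396 of all 2645 genes. The low side at 6 h was thus not particular to the 10. Their median level with AMAP was 9.05, 7.46 and 8.81 at 2, 6 and 24 h, against 7.62, 7.87 and 7.86 in control medium.

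The other 26 higher genes had a median of 0.13 at 2 h and 0.71 at 24 h. They were not more than 0.93 at 24 h, where the 10 reached 1.80. Against the control array of 6 h in place of that of 24 h, 7 of the 10 and 2 of the 26 were still called. Against the mean of the 3 control arrays it was 8 of the 10 and 11 of the 26. After cyclic loess, 10 of the 10 and 8 of the 26 were still called. A larger share of the 10 than of the 26 thus kept the call under these changes. The 26 lay nearer the 1.5-fold threshold, with a median of 0.71 at 24 h against 1.17 in the 10. Genes near the threshold lose the call with a smaller shift. These shares therefore cannot show whether the 10 and the 26 differ in anything but the size of the difference.

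At 6 h, 19 genes were higher (0.718%) and 22 lower (0.832%) with AMAP, and the called genes of 24 h stood on the opposite side. None of the 36 higher genes was higher at 6 h, and Pfkp and Polr3d, a subunit of RNA polymerase III, were lower. Of the 49 lower genes, 11 were higher at 6 h, which is 22.4% of the 49 and 57.9% of the 19, and none was lower. All 49 had a mean above 0 at 6 h, with a median of 0.54, against 1249 of all 2645 genes. The mean difference of Ppp1cb was 1.65 at 6 h and -2.66 at 24 h. The median level of the 49 genes was 7.99, 7.52 and 7.94 in control medium at 2, 6 and 24 h, and 7.78, 8.05 and 6.88 with AMAP. Between untreated arrays, the 6 h control lay below the 2 h control in the mean of 46 of the 49 (median -0.44). It lay above in 33 of the 36 higher genes (median 0.28). Over all 2645 genes it was below in 1187 and above in 1458 (median 0.03). The part of the 6 h control in the opposite sides was not tested.

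At 2 h only Cat of the 49 lower genes was also lower, and Nrip1, a nuclear receptor corepressor, was higher. Cat was at 9.17 and 9.49 in the control of 2 h and at 8.35 and 8.82 with AMAP. The median of the 49 at 2 h was 0.02. Of the 36 higher genes 31 (86.1%) lay above all 3 control arrays in every probe set, as did 374 of the 2645 (14.1%), and 38 of the 49 lower genes (77.6%) lay below them, as did 286 of the 2645 (10.8%). The 24 h control is 1 of these arrays and was used in the call.

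Untreated arrays differed from each other under the same rule. The 24 h control had 34 genes higher (1.29%) and 7 lower (0.265%) than the 2 h control, and 24 higher (0.907%) and 28 lower (1.06%) than the 6 h control. The 6 h control had 24 higher (0.907%) and 14 lower (0.529%) than the 2 h control. The counts of AMAP at 24 h, 36 and 49, compare with up to 34 and 28 between untreated arrays. A probe set at least 2-fold apart was found in 34 genes between the controls of 24 and 2 h, 64.7% of them in agreement, and in 154 between those of 24 and 6 h, 14.3% in agreement.

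APAP at 6 h, each against the 6 h control, had 35 of the 2645 genes higher (1.32%) and 114 lower (4.31%). Of the 36 genes higher with AMAP at 24 h, Necap2 and Serf1 were higher there. Of the 49 lower genes 15 were lower, 30.6% of the 49 and 13.2% of the 114, among them Ciao2a, Nectin3, Sfpq, Btg1, Malat1, Ddx6 and Gja1. All 49 had a mean below 0, with a median of -0.64, as had 1667 of all 2645 genes. The 10 genes higher at both AMAP times had a median of -0.11. The APAP array of 6 h has the dap value of -1.72 given above, and its part in this was not tested.

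APAP at 24 h shares its control array with AMAP at 24 h, so only values are given. Both compounds were at 2 mM. Mdm2 was 0.95 and 1.81 above the control with APAP, against 1.35 and 1.61 with AMAP. Cdkn1a was 1.59 and 1.42 above it with APAP, and 1.13 and 0.94 with AMAP. Txnip was at 2.52 and 2.39 with APAP, and 1.31 and 0.93 with AMAP, while Jun was at 0.43 and 1.18, and 1.43 and 1.84. Hsd17b7 was below the control with APAP, at -0.36 and -0.35, and above it with AMAP, at 0.65 and 0.59. With 1 array for each compound, no interval of these differences can be given.

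**Figure D5:**
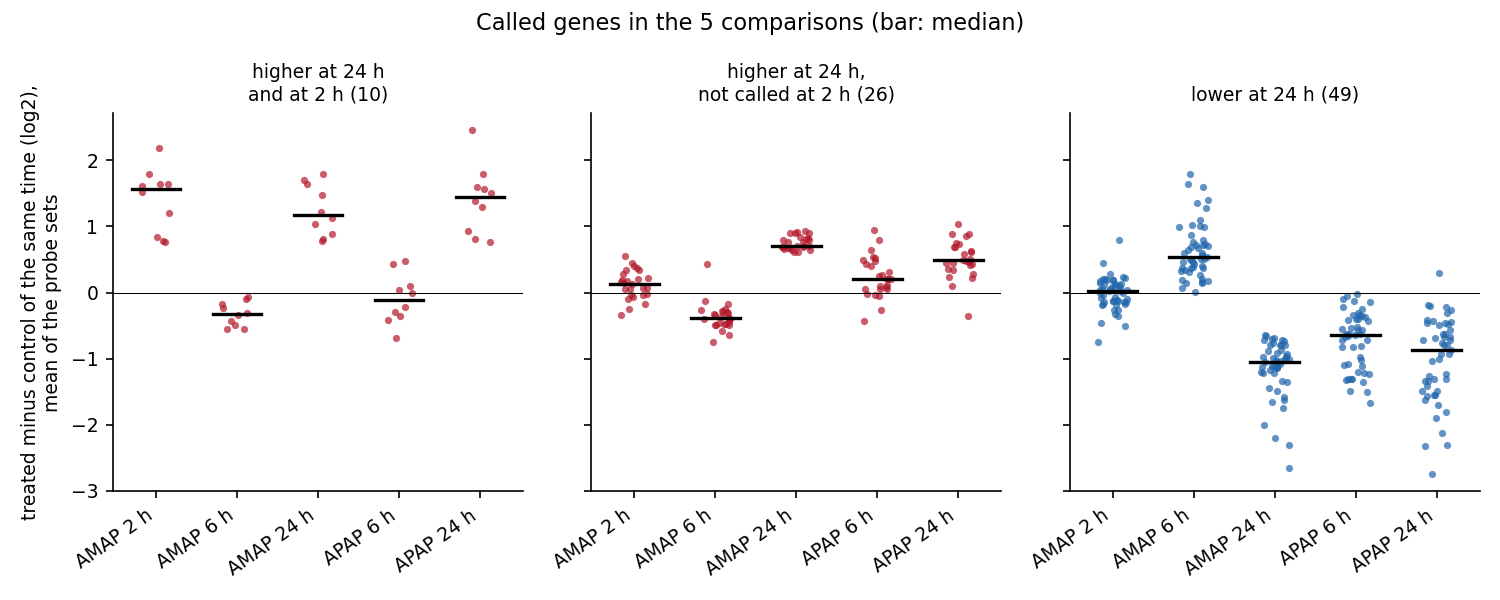
Mean log2 difference from the control of the same time for each called gene (dot; bar, median) with AMAP at 2, 6 and 24 h and APAP at 6 and 24 h, for the 10 genes higher at 24 h and 2 h, the other 26 higher genes and the 49 lower genes; the 24 h comparisons share a control array. The medians of the 10 are 1.57, -0.33 and 1.17 with AMAP, and all 49 lower genes lie above 0 with AMAP at 6 h and below 0 with APAP at 6 h.

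Gene length and promoter sequence were not used by the rule. The median gene length was 13.8 kb in the 36 higher genes, 30.4 kb in the 49 lower genes and 25.7 kb in the 2644 genes with a length. The median GC content of the promoter windows was 64.7%, 66% and 63.7%. The E-box CACGTG was found in 4 of 32 higher genes (12.5%), 10 of 43 lower genes (23.3%) and 13% of the 2171 genes. The AP-1 motif TGANTCA was found in 1 higher gene, Lif (3.12%), in 3 lower genes (6.98%) and in 6.22% of the 2171. None of these shares was tested.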

How the data were processed

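RNA of TAMH cells was read on 9 arrays, 1 per treatment and time, grouped by sample title. The authors deposited 1 log2 value per probe set and array. Per the submitters' processing notes these came from RMA, run in Affymetrix Expression Console. The sources used here do not give its version or say which arrays were normalized together. RMA equalizes intensity distributions, which hides any change of total RNA. Of 22690 probe sets, 64 were controls, 20380 had 1 gene symbol in GEO's platform annotation, 691 several and 1555 none. Log2 differences of 2 arrays were taken, with no test and no p-value. The scripts (Python 3.11.15, pandas 2.3.3, numpy 2.4.6; cyclic loess in limma 3.58.1, R 4.3.3) were tested on simulated data. The simulation drew independent noise with the spread between the controls of 24 and 2 h. The median range between probe sets of a gene was 0.17 for those controls and 0.47 for AMAP at 24 h. The simulation therefore does not give the rate of false calls here. Genes and the 24 pathway and 5 cell type lists were chosen with earlier results of these data known. Named genes are the 12 highest and 12 lowest called genes by their smallest probe-set difference, up to 4 genes with the largest mean difference per list, and the 5 widest ranges; other genes were named after their values were seen. At the level limit Sbk1 (5.65893) was inside and Cdc7 (5.65714) outside. Alternatives were the threshold, the level filter, loess, centring, the mean of probe sets, suffixes and the mean of the control arrays; the control arrays of 2 h, of 6 h, and the mean of those of 2 and 24 h were added after seeing the data.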

Additional observations from a re-analysis of the deposited data

Results flagged for a closer look

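Genes called in opposite directions at 2 AMAP times are given here with the mean difference at 24 h minus that at the earlier time; no difference between times was tested, and each value rests on 4 arrays. Nrip1 was called higher at 2 h and lower at 24 h, and the change was -1.50. Against 6 h, Pfkp and Polr3d changed by 1.58 and 1.33 from lower to higher. From higher to lower, Arg2, the mitochondrial arginase, changed by -1.65, Bmi1, a Polycomb protein, by -2.17 and catalase, Cat, by -3.02. Connexin 43, Gja1, changed by -3.42, the histone variant H2az1 by -2.08, the ubiquitin ligase Marchf7 by -1.81 and Ppp1cb by -4.31. Resf1, a regulator of retroelements, changed by -1.74, Rnpc3 by -3.31, Tmem123 by -3.05 and Tomm70a, a mitochondrial import receptor, by -1.76. The control array of 6 h was low in single probe sets of several of these genes, such as Ppp1cb at 6.38 against 8.45 and 8.49 on the other control arrays, and its part in these values was not tested.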

How the results depend on the processing

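The 36 higher genes became 5 at a 2-fold threshold, 18 after cyclic loess, 97 when the mean of the probe sets was used, 98 against the control array of 2 h and 55 against the mean of the control arrays of 2 and 24 h. The 49 lower genes became 6 at 2-fold and 266 with the mean of the probe sets. Under the other alternatives the counts stayed within 1.5 times, between 24 and 54 higher and between 34 and 65 lower, but the genes differed: against the control array of 6 h, 27 were higher and 37 lower, of which 9 and 14 were among the 36 and 49. The agreement share of 11.9% became 7.96% without the level filter, where the median of all genes was 0.11, 20.5% against the control of 2 h and 17.7% against that of 6 h. The median of the MAPK feedback genes turned from 0.38 to -0.0622 against the control of 6 h; that of the p53 targets was 0.45 to 0.81 over its 6 alternatives. Aen, Polk, Pim3, Hoxc6, Cavin1 and Brat1 of the 12 highest, and Rnpc3, Vldlr, Resf1, Tmem123, Cnbp and Btg1 of the 12 lowest, were not called against the control of 6 h. Apart from the construction of each alternative, the cause of these shifts was not tested. The number of arrays, 1 per group, limits the precision of every value.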
